A study of Rattus norvegicus with 18 samples.

Results

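The 8 genes described here encode the pores and the regulatory subunits of the inward rectifier potassium channels of the heart. They were taken by symbol from the deposited rat gene table, where Kcnj2, Kcnj3, Kcnj5, Kcnj8, Kcnj11, Kcnj12, Abcc8 and Abcc9 each matched 1 gene, and they are 8 of 32883 genes counted. An inward rectifier lets potassium enter a cell more easily than leave it, and in working muscle it holds the membrane at its resting potential between beats. Kir2 channels (Kcnj2, Kcnj12) carry the strong background current IK1, which is small in sinoatrial pacemaker cells. Kir3 channels (Kcnj3, Kcnj5) carry the current that acetylcholine from the vagus nerve switches on through G proteins. Channels sensitive to ATP (KATP) join a Kir6 pore (Kcnj11, Kcnj8) to a sulfonylurea receptor (Abcc8, Abcc9) and open when the energy state of the cell falls.

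RNA was sequenced from 18 pieces of the hearts of 4 healthy male Sprague Dawley rats, with no treatment in any group. The superior sinoatrial node (sSAN), the inferior sinoatrial node (iSAN), the left atrium (LA) and the right atrium (RA) were taken from all 4 rats, and the left ventricle (LV) from rats 3 and 4. Rats 1 and 2 had an age of 59 days and the other pair one of 70 days, so each LV library is from a 70-day rat. The node pieces were dissected by hand at sites known from recordings in other hearts, and according to the study they hold atrial muscle as well as node cells. Every piece is bulk tissue, in which fewer cells of a type and less RNA per cell cannot be told apart.

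Libraries held between 17334954 and 24252103 counts assigned to genes. The labelled regions were checked against marker lists. Of 9 sinoatrial node markers (Hcn4, Shox2, Isl1, Tbx3 and others) tested against the RA, 6 were higher in the sSAN and none was lower, and in the iSAN it was 6 of the 8 that passed the filter on low counts. Myl2, the regulatory light chain of ventricular muscle, averaged 2500.2 CPM (counts scaled to a common library size) in the LV and 0.180 CPM in the RA. The node pieces also held other tissue, with all 8 of 8 adipocyte markers higher in the sSAN and 7 of 8 in the iSAN than in the RA. The 13 cardiomyocyte markers made up 1.53% to 3.73% of the counts for the sSAN, 2.84% to 4.25% for the iSAN, 4.71% to 5.12% in the LV, 4.67% to 5.17% in the LA and 4.99% to 5.20% in the RA.

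Levels of different genes are compared here only per length, as FPKM, which divide a count by gene length and library size, from the deposited table. For Kcnj12, Abcc8 and Abcc9 the FPKM rest on a shorter length than the one the table lists, so their place in the order depends on it. In the RA, Kcnj3 was the highest of the set at 174 ± 9.83 FPKM (SD, n = 4), above Kcnj5 at 91.0 ± 6.13 and Abcc9 at 83.3 ± 9.86, which lay within each other's spread. Kcnj11 followed at 50.6 ± 3.36 FPKM, Kcnj12 at 20.8 ± 1.32 and Abcc8 at 11.8 ± 0.353. Kcnj8 at 9.42 ± 1.02 FPKM and Kcnj2 at 8.92 ± 1.39 FPKM closed the order and were not apart. The LV had another order, led by Abcc9 at 52.0 ± 3.96 FPKM and Kcnj11 at 40.1 ± 2.02 FPKM (n = 2). There Kcnj3 stood at 14.9 ± 1.03 FPKM, Kcnj8 at 14.7 ± 5.31, Kcnj2 at 10.6 ± 1.76, Kcnj5 at 10.3 ± 1.63, Kcnj12 at 7.39 ± 0.667 and Abcc8 at 5.46 ± 0.328, and Kcnj3 and Kcnj8 overlapped, as did Kcnj2 and Kcnj5. In the sSAN the order began with Kcnj3 at 67.9 ± 22.1 FPKM, then Abcc9 at 41.9 ± 10.9 and Kcnj5 at 41.6 ± 15.8, and ended with Kcnj2 at 3.80 ± 1.19 FPKM. In the iSAN Kcnj3 stood at 106 ± 26.2 FPKM, Kcnj5 at 62.3 ± 9.39 and Abcc9 at 60.6 ± 12.8, and Kcnj2 was again lowest at 5.81 ± 1.44 FPKM.

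Below, the same gene is compared between regions in CPM scaled by TMM, a factor that sets the bulk of genes equal between libraries, and p-values come from edgeR's quasi-likelihood test with Benjamini-Hochberg adjustment over all genes tested. A gene is called where its adjusted p is below 0.05. Values per library are given for rats 1, 2, 3 and 4, and for rats 3 and 4 in the LV. The comparisons share libraries, the 4 RA libraries entering each comparison with the RA.

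**Figure D1:**
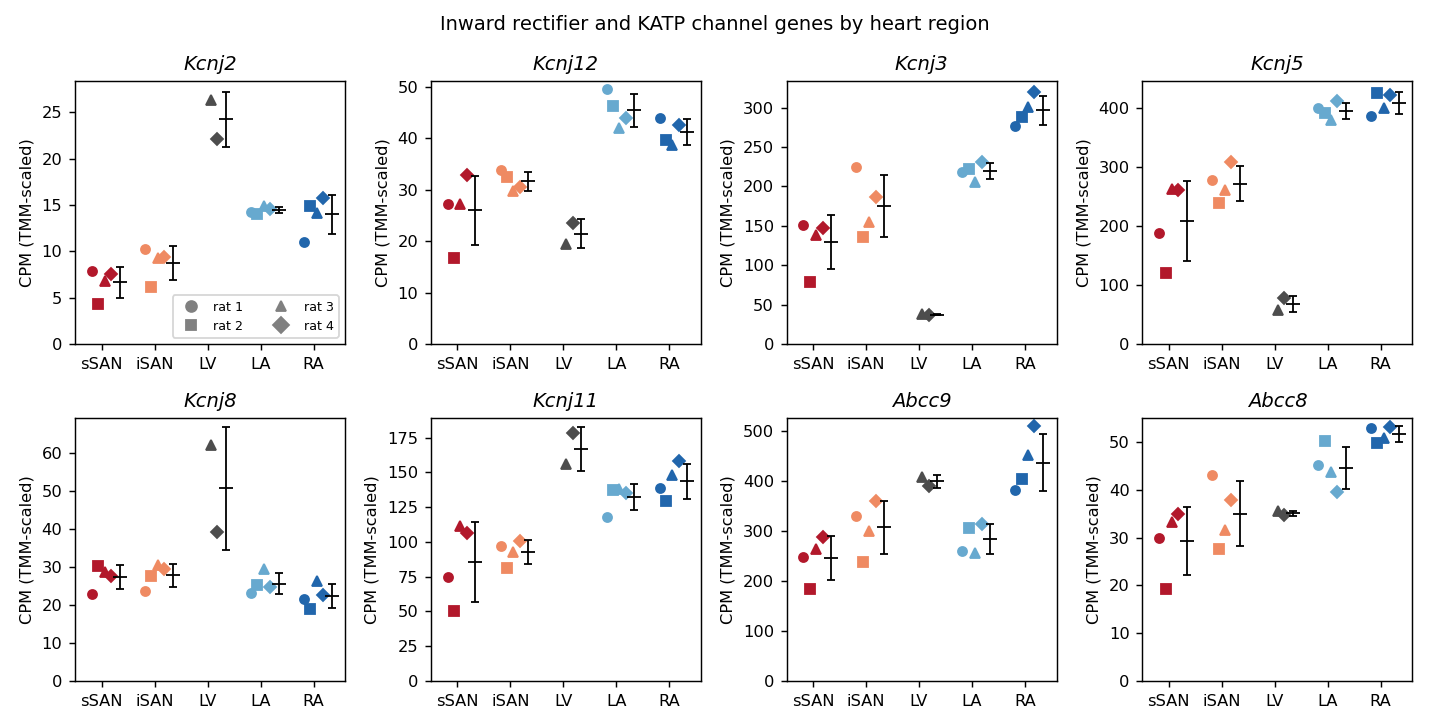
Level of each of the 8 genes in CPM (TMM-scaled, linear axes from 0) by region, with 1 point per library, point shape by rat, and the mean with SD beside the points (n = 4, LV n = 2). The sSAN points lie below all RA points for 7 genes and overlap them for Kcnj8, and the LV points lie far below the atrial ones for Kcnj3 and Kcnj5. How many of all genes are separated in this way was not counted.

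Against the RA, 7 of the 8 genes were lower in the sSAN, where 8.48% of 14038 genes tested were called lower and 13.8% higher, 22.2% in all. The same 7 were lower in the iSAN, where 6.16% of 14066 genes were called lower and 10.4% higher, 16.6% in all. The exception in both nodes was Kcnj8, the KATP pore of vascular muscle and pericytes, which was called in neither direction. The median log2 fold change of the 8 was -0.81 in the sSAN, against 0.02 over all genes, and -0.55 in the iSAN, against 0.01 over all genes. These directions hold for TMM scaling, and with libraries scaled by their cardiomyocyte markers Kcnj12 turned to 0.06 in the sSAN and 0.13 in the iSAN. In that setting 1 member was called lower in each node, Kcnj3, and 1 higher, Kcnj8 (1.11 for the sSAN and 0.83 for the iSAN). No member was called between the sSAN and the iSAN, where 0.00699% of 14301 genes were called and no member had an unadjusted p below 0.05. DESeq2 called 141 genes between the nodes and none of the 8. Kcnj2, Kcnj3 and Abcc9 had sSAN values below the iSAN ones in 4 of 4 rats, the per-rat log2 differences of Kcnj2 being -0.39, -0.51, -0.44 and -0.31. With rat as a block no member was called either (adjusted p 0.146 to 0.862), with -0.42 for Kcnj2 (0.179), -0.47 for Kcnj3 (0.146) and -0.33 for Abcc9 (0.153).

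Kcnj3 encodes a Kir3 pore subunit that works in a complex with Kcnj5. It was at 152, 79.2, 139 and 147 CPM in the sSAN, 225, 136, 155 and 187 CPM in the iSAN, 38.1 and 36.7 CPM in the LV, 219, 222, 206 and 230.5 CPM in the LA, and 277, 289, 301 and 319.6 CPM in the RA. Every RA library was above every library of the 4 other regions, and both LV libraries were below all others. Against the RA it had the largest fall of the set, by 1.18 on the log2 scale for the sSAN (standard error 0.18, adjusted p = 0.00329), 0.73 in the iSAN (standard error 0.15, adjusted p = 0.0088) and 2.99 in the LV (standard error 0.10, adjusted p = 8.35e-09). The LV level was 7.97-fold lower than that of the RA and 5.88-fold lower than that of the LA.

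Kcnj3 was also lower in the LA than in the RA, by 0.44 on the log2 scale (standard error 0.06, adjusted p = 0.000654), in 4 of 4 rats. There 2 of the 8 genes were called lower and none higher, with 4.26% of 13904 genes called lower and 4.37% higher, 8.64% in all. With rat as a block 2492 genes were called in place of 1201, and 3 members, Abcc8 being the added one (-0.22, adjusted p = 0.0254). With all 5 regions in 1 fit 546 genes and 1 member were called, and the Kcnj3 value was -0.43 with an adjusted p of 0.22.

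Kcnj5, the other Kir3 pore subunit of the heart, was at 188, 121, 263 and 261 CPM in the sSAN, 278, 238, 261 and 309 CPM in the iSAN, 58.3 and 77.7 CPM in the LV, 399.7, 391, 379 and 411 CPM in the LA, and 387, 425, 399.9 and 422 CPM in the RA. The LA and RA overlapped (log2 fold change -0.05, 95% interval -0.18 to 0.07, adjusted p = 0.669), and the nodes lay below both atria. Set against the RA, the log2 fold change came to -0.96 for the sSAN (adjusted p = 0.0143), -0.56 for the iSAN (adjusted p = 0.00351) and -2.60 in the LV (adjusted p = 1.13e-07). Against the LV both Kir3 genes were higher in the nodes, Kcnj3 3.41-fold in the sSAN and 4.68-fold in the iSAN, and Kcnj5 3.02-fold in the sSAN and 3.98-fold in the iSAN. Each of these was called (adjusted p 0.000169 to 0.0168), beside 10.8% of all genes called higher and 11.9% lower (22.7% in all) between sSAN and LV, and 18.8% higher and 20.3% lower (39.1% in all) between iSAN and LV. Leaving out either LV library left 1, taken to vary as the other group does, and no call for either gene in the sSAN (adjusted p 0.0555 and 0.126 without LV replicate 3, 0.0733 and 0.0973 without LV replicate 4), and the number of genes called there fell to 1005 and 566 of 3280.

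The LV stood apart from both atria in opposite directions within the set. Against the RA, 4 genes were lower (Kcnj3, Kcnj5, Kcnj12, Abcc8) and 2 higher (Kcnj8, Kcnj2), where 22.7% of 14166 genes were called lower and 23.5% higher. Against the LA the same 4 were lower and 4 were higher (Kcnj8, Kcnj2, Abcc9, Kcnj11), where 21.1% of 14274 genes were called lower and 22.1% higher. With 46.2% of all genes called in either direction against the RA and 43.2% against the LA, the number of members called is read against a high background. Scaling mattered in the LV, whose TMM factors were 0.752 and 0.707 while those of the RA were 1.04 to 1.12. With library totals alone, the scaling of the deposited FPKM, the median of all genes was -0.57 against the RA and not -0.03, and the share of higher calls among all calls was 14.1% and not 50.9%. In that setting 6 members were called lower and only Kcnj8 higher against the RA, beside 8203 of 14166 genes lower and 1350 higher. No member was called higher against the LA, beside 1135 of 14274 genes higher and 8162 lower. The age of the LV rats cannot be told apart from region where all 4 RA libraries enter. With the 70-day rats alone the same 4 were lower and 2 higher (Kcnj3 -3.06, Kcnj5 -2.61, Kcnj8 1.05 and Kcnj2 0.69, adjusted p = 2.41e-06, 2.1e-05, 0.0139 and 0.00866). The number of all genes called in that fit was of the order of the 6538 called with all 4 RA libraries, again a high background.

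With TMM scaling Kcnj2 was called higher and Kcnj5 lower in the LV than in the RA, and their promoters are shown for that contrast. The Kcnj2 rise was not called with library totals alone or with cardiomyocyte-marker scaling. Each promoter is given as 250 bases before and 50 after the start that RefSeq gives on the GRCr8 assembly, with GC boxes (GGGCGG on either strand) in capitals. Kcnj2 lies at chr10:96559975-96560274 on the plus strand and Kcnj5 at chr8:39011047-39011346 on the minus strand.
Kcnj2: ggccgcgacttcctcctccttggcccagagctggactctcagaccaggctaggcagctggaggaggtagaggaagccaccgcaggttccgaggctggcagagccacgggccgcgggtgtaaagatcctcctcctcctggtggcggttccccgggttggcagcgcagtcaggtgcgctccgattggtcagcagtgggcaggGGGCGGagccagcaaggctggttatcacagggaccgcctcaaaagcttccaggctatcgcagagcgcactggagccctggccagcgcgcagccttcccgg
Kcnj5: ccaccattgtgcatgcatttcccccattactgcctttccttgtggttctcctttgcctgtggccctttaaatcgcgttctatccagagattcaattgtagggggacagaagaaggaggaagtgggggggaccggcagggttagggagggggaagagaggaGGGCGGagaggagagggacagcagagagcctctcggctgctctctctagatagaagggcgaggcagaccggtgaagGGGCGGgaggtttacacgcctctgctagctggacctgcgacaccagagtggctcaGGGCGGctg
Promoters of 4 of the 8 genes could be matched (Kcnj2, Kcnj5, Kcnj8 and Abcc9). Each held a GC box, 3 in Kcnj5 and 1 in each of the others, while 33.1% of the 33469 rat promoters of the same length hold at least 1. The Nkx2 motif AAGTG was found once in Kcnj5 and once in Kcnj8, and 46.2% of all promoters hold it. E-boxes (CANNTG), held by 72.1% of all promoters, were found in Kcnj2, Kcnj5 and Abcc9. None of the 4 windows held the Gata family motif AGATAA on either strand, which 11.6% of all promoters hold. The T-box motif AGGTGT, held by 13.6% of them, was likewise not found in these 4. The motif TATAAA, held by 14.2%, and the MEF2 motif, held by 3.84%, had no match there. A match is a description of the letters and not of binding.

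Kcnj2 encodes the main pore of ventricular IK1. It was at 7.88, 4.29, 6.84 and 7.59 CPM in the sSAN, 10.3, 6.12, 9.29 and 9.43 CPM in the iSAN, 26.3 and 22.1 CPM in the LV, 14.3, 14.1, 14.9 and 14.6 CPM in the LA, and 11.04, 14.9, 14.2 and 15.8 CPM in the RA, from 73 to 389 counts per library. The LV libraries were the highest and the node libraries the lowest, and no node library reached an atrial one. Set against the RA, the log2 fold change came to -1.06 for the sSAN (standard error 0.20, adjusted p = 0.00671), -0.64 in the iSAN (standard error 0.17, adjusted p = 0.0311) and 0.79 in the LV (standard error 0.15, adjusted p = 0.00146). Against the LV it was 3.68-fold lower in the sSAN and 2.76-fold lower in the iSAN, the widest gap of any member called lower there. With library totals alone these log2 values were -1.47 and -0.86 (adjusted p = 0.0105 and 0.0134). With cardiomyocyte-marker scaling they were -0.63 and -0.49 and not called (adjusted p = 0.11 and 0.0873). The LA and RA did not differ beyond their spread (0.04, 95% interval -0.19 to 0.28, adjusted p = 0.886), and without RA replicate 1 the value was -0.05. The rise in the LV was no longer called with library totals alone (0.24, adjusted p = 0.207) or with cardiomyocyte-marker scaling (0.30, adjusted p = 0.156). In both it was above the median of all genes, a place that a change of scaling leaves nearly fixed. In the iSAN the call was lost without iSAN replicate 3 (adjusted p = 0.0666), without RA replicates 2, 3 or 4 (0.0782, 0.0683 and 0.0818), without rat 2 (-0.47, adjusted p = 0.0747) and with library totals alone (0.0539).

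Kcnj12, a second Kir2 pore, ran the other way in the ventricle. It was at 27.3, 16.7, 27.3 and 32.8 CPM in the sSAN, 33.8, 32.5, 29.8 and 30.5 CPM in the iSAN, 19.4 and 23.5 CPM in the LV, 49.4, 46.2, 42.0 and 43.9 CPM in the LA, and 43.9, 39.6, 38.6 and 42.5 CPM in the RA. Both atria were above every node and LV library, and the sSAN overlapped the LV through its rat 2 library. Against the RA it had log2 fold changes of -0.65 for the sSAN (adjusted p = 0.0269), -0.35 for the iSAN (adjusted p = 0.00892) and -0.95 in the LV (adjusted p = 4.31e-05), the nodes turning to 0.06 and 0.13 with cardiomyocyte-marker scaling. It was the smallest fall of the called members in each node. With all 5 regions in 1 fit the iSAN value was -0.37 with an adjusted p of 0.0771. In the sSAN the adjusted p was 0.0713, 0.0608, 0.0536 and 0.0679 when RA replicates 1, 2, 3 and 4 were left out in turn. Without LV replicate 3 its 1.47-fold higher level in the iSAN than in the LV (adjusted p = 0.00806) had an adjusted p of 0.0692.

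Within a library the ratio of 2 genes does not depend on the scaling, so pairs of partner genes were compared as FPKM ratios with exact two-sided permutation tests, 16 in all, for which 4 libraries against 4 cannot give a p below 0.0286. These tests take the libraries as independent, although both sides of each comparison come from the same 4 rats. The Kcnj2/Kcnj12 ratio was 0.323 for the sSAN, 0.344 for the iSAN, 1.42 in the LV, 0.402 in the LA and 0.425 in the RA as geometric means. In both LV libraries Kcnj2 exceeded Kcnj12 (1.18 and 1.71), and in all 16 other libraries it was below it (0.237 to 0.475). The LV has 2 libraries and was not tested. Between the nodes and the RA the ratio did not pass (exact permutation p = 0.0857 for the sSAN and 0.343 for the iSAN). The Kcnj3/Kcnj5 ratio was 1.66 for the sSAN, 1.68 for the iSAN, 1.46 in the LV, 1.46 in the LA and 1.91 in the RA. All 4 LA libraries (1.43 to 1.49) were below all 4 RA libraries (1.79 to 1.99; exact permutation p = 0.0286, adjusted p = 0.114).

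**Figure D2:**
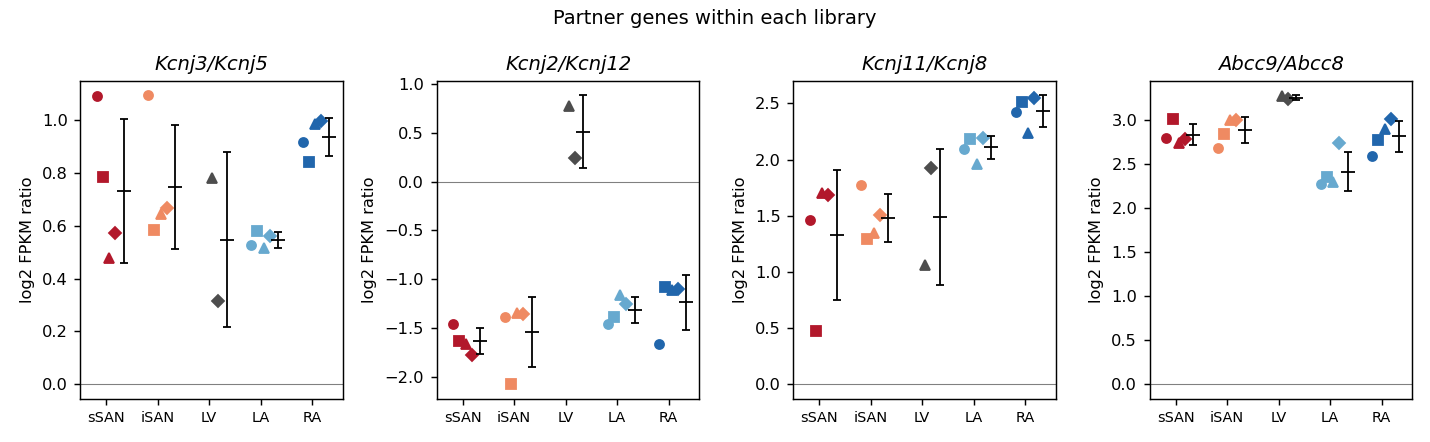
Log2 FPKM ratio of 4 pairs of partner genes by region, with 1 point per library, point shape by rat (circle, square, triangle and diamond for rats 1 to 4) and the mean with SD (n = 4, LV n = 2). Kcnj2/Kcnj12 is above 0 in the LV alone, and Kcnj11/Kcnj8 is lower in the sSAN, iSAN and LA libraries than in the RA libraries.

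Kcnj11, the KATP pore of heart muscle cells, was at 75.0, 50.3, 111 and 107 CPM in the sSAN, 96.7, 80.9, 93.1 and 101 CPM in the iSAN, 156 and 178 CPM in the LV, 118, 137, 138 and 135 CPM in the LA, and 139, 129, 148 and 158 CPM in the RA. Node libraries were all below atrial ones, and the LV overlapped the RA. Set against the RA, the log2 fold change came to -0.73 for the sSAN (standard error 0.22, adjusted p = 0.043), -0.60 for the iSAN (standard error 0.09, adjusted p = 0.00239) and 0.21 in the LV (95% interval -0.00 to 0.42, adjusted p = 0.0951). The sSAN call was lost when RA replicate 1, 2, 3 or 4 was left out (adjusted p 0.0831, 0.0751, 0.0946 and 0.103), without sSAN replicate 1 (0.094) and with no filter on low counts (0.0554). Against the LA the LV was higher by 0.34 (adjusted p = 0.0153), without LV replicate 4 by 0.23 (adjusted p = 0.155), with rat as a block by 0.29 (adjusted p = 0.0668), and with all 5 regions in 1 fit by 0.35 (adjusted p = 0.213). With library totals alone Kcnj11 in the LV turned to -0.34 against the RA (adjusted p = 0.00491) and -0.20 against the LA. Both values were above the median of all genes in that setting, a place that a change of scaling leaves nearly fixed. Between the nodes its sign differed by rat, sSAN below iSAN in rats 1 and 2 and above it in rats 3 and 4 (log2 fold change -0.13, 95% interval -0.64 to 0.38, adjusted p = 0.873).

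Kcnj8 was at 22.7, 30.1, 28.5 and 27.7 CPM in the sSAN, 23.6, 27.5, 30.4 and 29.5 CPM in the iSAN, 62.0 and 39.2 CPM in the LV, 23.0, 25.2, 29.4 and 24.7 CPM in the LA, and 21.6, 18.8, 26.2 and 22.5 CPM in the RA. Nodes and atria overlapped, and both LV libraries were above all 16 others, the rat 3 one further than the rat 4 one. Against the RA the log2 fold change was 0.30 in the sSAN (95% interval 0.02 to 0.58, adjusted p = 0.119), 0.34 in the iSAN (95% interval 0.09 to 0.60, adjusted p = 0.066) and 1.18 in the LV (standard error 0.19, adjusted p = 0.00118). The nodes were above the RA in 4 of 4 rats each, and with rat as a block the iSAN was called (0.34, adjusted p = 0.0282), as it was without iSAN replicate 1 (0.41, adjusted p = 0.0279) and without RA replicate 3 (0.42, adjusted p = 0.0403). Against the LV it was lower in both nodes (sSAN -0.91, adjusted p = 0.018, iSAN -0.87, adjusted p = 0.00752). Without LV replicate 3, which left 1 LV library, the values shrank to -0.53 and -0.50. With library totals alone neither was called (-0.54 and -0.28, adjusted p = 0.0991 and 0.274). With cardiomyocyte-marker scaling the values turned to 0.41 and 0.13, below medians over all genes of 1.36 and 1.05.

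The levels of pericyte markers are given beside Kcnj8. Of 8 (Pdgfrb, Rgs5, Cspg4, Notch3, Higd1b, Mcam, Vtn, Ndufa4l2), 6 were higher for the sSAN, 4 for the iSAN and 8 in the LV than in the RA, and none was lower. Their summed level was 388 to 490.5 CPM for the sSAN, 337 to 437 CPM for the iSAN, 531 and 779 CPM in the LV, 322 to 379 CPM in the LA and 237 to 331 CPM in the RA, with no marker at 0 in any region. Among the 8 markers of smooth muscle, the sSAN had 6 above the RA, the iSAN 5, and the LV 5 above and 1 below it. Their part in the Kcnj8 values was not tested.

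The Kcnj11/Kcnj8 ratio was 2.51 for the sSAN, 2.79 for the iSAN, 2.82 in the LV, 4.31 in the LA and 5.39 in the RA. Each sSAN library (1.39 to 3.25), each iSAN library (2.45 to 3.42) and each LA library (3.90 to 4.56) was below each RA library (4.71 to 5.86). These 3 comparisons each gave an exact permutation p of 0.0286, the smallest 4 against 4 allow, and 0.114 after adjustment over 16 tests, so none passed. The 2 LV libraries were at 3.79 and 2.09.

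Abcc9 encodes SUR2, the sulfonylurea receptor of cardiac and vascular KATP channels. It was at 249, 184, 264 and 288 CPM in the sSAN, 331, 237, 301 and 360.2 CPM in the iSAN, 409 and 390.3 CPM in the LV, 260.4, 306, 255 and 314 CPM in the LA, and 381, 405, 452 and 510.1 CPM in the RA. The LA lay below the RA with no overlap and inside the range of the nodes. Set against the RA, the log2 fold change came to -0.82 for the sSAN (standard error 0.15, adjusted p = 0.00641), -0.48 for the iSAN (standard error 0.14, adjusted p = 0.0418) and -0.63 in the LA (standard error 0.10, adjusted p = 0.00214), lower in 4 of 4 rats each time. The LA fall was 1.54-fold. In the LV it was not called against the RA (-0.14, 95% interval -0.38 to 0.11, adjusted p = 0.35) and was higher than in the LA by 0.49 (adjusted p = 0.00319). With library totals alone those values were -0.68 (adjusted p = 0.00033) and -0.04 (adjusted p = 0.72). The iSAN call was lost without iSAN replicate 3 (adjusted p = 0.104), without RA replicates 2, 3 or 4 (0.0688, 0.0918 and 0.107), without rat 2 (0.0589) and with library totals alone (0.0725). Against the LV it was lower in the sSAN (-0.72, adjusted p = 0.0322), with an adjusted p of 0.077 without sSAN replicate 1. The value was -0.67 and -0.73 without LV replicates 3 and 4, each of which left 1 LV library. It was not called with library totals alone (-0.31, adjusted p = 0.379). With cardiomyocyte-marker scaling it turned to 0.55, below a median over all genes of 1.36.

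Abcc8 encodes SUR1, the receptor of the pancreatic beta cell channel, which is also found in rodent atrial muscle. It was at 30.0, 19.1, 33.2 and 34.9 CPM in the sSAN, 43.0, 27.6, 31.6 and 37.8 CPM in the iSAN, 35.5 and 34.7 CPM in the LV, 45.2, 50.1, 43.7 and 39.5 CPM in the LA, and 52.9, 49.7, 50.9 and 53.2 CPM in the RA. All RA libraries were above the nodes and the LV, and the LA overlapped both the RA and the iSAN. Set against the RA, the log2 fold change came to -0.81 for the sSAN (adjusted p = 0.00919), -0.53 for the iSAN (adjusted p = 0.018), -0.57 in the LV (adjusted p = 0.000193) and -0.22 in the LA (adjusted p = 0.0952). With rat as a block, the LA value was -0.22 with an adjusted p of 0.0254, and it was also called without LA replicate 2 (-0.28, adjusted p = 0.0335). The iSAN value was -0.48 without iSAN replicate 3 (adjusted p = 0.0586). The fall in the LV against the LA, by 0.35 (adjusted p = 0.022), was lost without LA replicate 2 (adjusted p = 0.0517), LV replicate 3 (0.0738) or LV replicate 4 (0.106), with rat as a block (-0.25, adjusted p = 0.134) and with all 5 regions in 1 fit (-0.34, adjusted p = 0.189). Of 5 pancreatic islet markers, Ins1 and Ins2 had 0 counts in all 18 libraries and the summed level of the 5 was at most 0.411 CPM.

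The Abcc9/Abcc8 ratio was 7.11 for the sSAN, 7.35 for the iSAN, 9.53 in the LV, 5.32 in the LA and 7.03 in the RA. It differed from the RA by 0.02 on the log2 scale for the sSAN (exact permutation p = 0.857) and by 0.06 in the iSAN (exact permutation p = 0.571). In the LA it was 1.32-fold lower (exact permutation p = 0.0571, adjusted p = 0.183), with the groups overlapping (4.82 to 6.66 in the LA and 6.03 to 8.02 in the RA). The KATP genes lie in 2 neighbouring pairs of a pore and a receptor gene on the same strand. Kcnj11 (chromosome 1, 102103094 to 102106127) and Abcc8 (102110708 to 102191287) are 4580 bases apart, and Kcnj8 (chromosome 4, 176782498 to 176789304) and Abcc9 (176805431 to 176922424) are 16126 bases apart, in the coordinates of the deposited table, with no gene of the table between them. Within regions, the log2 CPM of Kcnj11 and Abcc8 had a Pearson r of 0.80 and that of Kcnj8 and Abcc9 of -0.01 over the 18 libraries, given as a description.

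**Figure D3:**
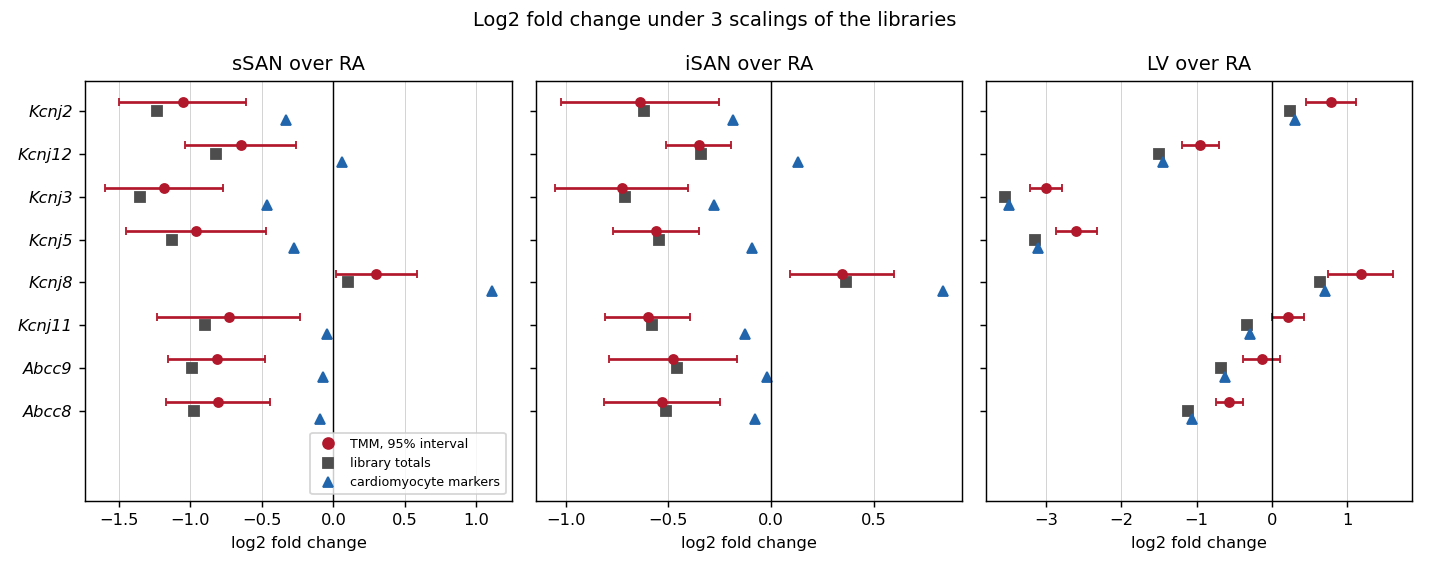
Log2 fold change of the 8 genes in the sSAN, iSAN and LV against the RA with TMM scaling (circles, 95% interval), library totals (squares) and cardiomyocyte-marker scaling (triangles). In the nodes the triangles of 6 genes lie between the circles and 0, Kcnj12 passes to 0.06 and 0.13 and Kcnj8 moves up, and in the LV the order of the genes is kept while every value moves down and Kcnj11 changes sign.

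The fall of the 7 genes in the nodes went along with fewer cardiomyocyte transcripts. The 13 cardiomyocyte markers summed to between 18473 and 35790 CPM in the sSAN and between 28211 and 38395 CPM in the iSAN, below the RA range of 45201 to 49118 CPM, and 4 of 13 in the sSAN and 6 of 13 in the iSAN were called lower. With libraries scaled by these markers, 1 member was called lower against the RA in each node, Kcnj3, at -0.47 in the sSAN (adjusted p = 0.0328) and -0.28 in the iSAN (adjusted p = 0.0341). Kcnj8 was then called higher, at 1.11 (adjusted p = 0.00718) and 0.83 (adjusted p = 0.00211). So were 9351 of 14038 genes in the sSAN and 8536 of 14066 in the iSAN. The remaining values were -0.33 and -0.19 for Kcnj2, -0.28 and -0.09 for Kcnj5, -0.05 and -0.13 for Kcnj11, -0.09 and -0.08 for Abcc8, -0.08 and -0.02 for Abcc9 in the sSAN and iSAN, and none was called. That scaling raised the median of all genes to 0.81 for the sSAN and 0.49 for the iSAN, and 99.4% and 98.7% of its calls were higher, against 61.9% and 62.8% with TMM and 36.5% and 72.7% with library totals. All 7 genes were below the median of all genes under each scaling, and Kcnj8 above it with cardiomyocyte-marker scaling. A change of scaling moves all genes by nearly the same amount, so it can hardly move a gene past the median. The scalings are therefore not separate evidence of that place. In the LV the same scaling left Kcnj3 at -3.49 and Kcnj5 at -3.10 against the RA (adjusted p = 4.77e-09 and 6.17e-09), with a median of -0.52 over all genes. Whether the share of muscle cells sets the node values was not tested.

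**Figure D4:**
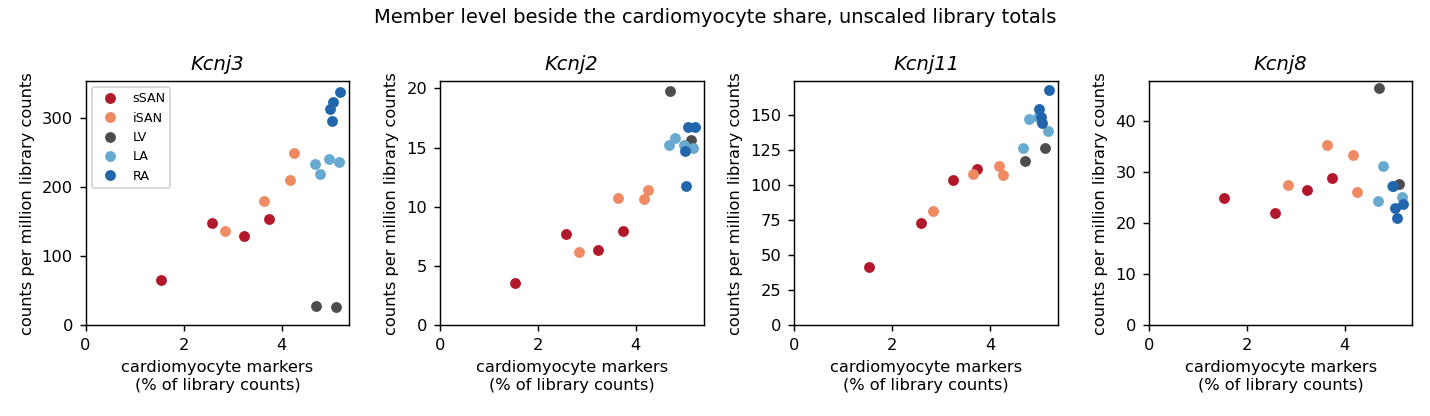
Level of Kcnj3, Kcnj2, Kcnj11 and Kcnj8 in CPM of the library total, without TMM scaling (linear axis from 0), against the share of counts in 13 cardiomyocyte markers in percent, with 1 point per library coloured by region. The sSAN library with 1.53% has the lowest Kcnj2 and Kcnj11 points, Kcnj8 shows no such order, and the 2 LV points lie below the others for Kcnj3 at 4.71% and 5.12%.

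The rat 2 pieces had the lowest sSAN level for 7 of the genes and the lowest iSAN level for 6 of them, and the sSAN piece of rat 2 had the lowest cardiomyocyte share of all libraries. Without rat 2, all 7 stayed called lower in the sSAN (log2 fold changes -0.52 to -1.04, 1751 genes called in all) and 5 in the iSAN (1558 genes). Within the 59-day rats the sSAN had 5 members called lower, with 3193 genes called in all, and the iSAN none, with 31. Within the 70-day rats it was 6 in the sSAN, with 1710 genes called in all, and 7 in the iSAN. The number of all genes called in that iSAN fit was of the order of the 2330 called with all 4 rats. The iSAN calls at 59 days were thus fewer over all genes as well as among the members. The iSAN values at 59 days, -0.32 for Kcnj12 to -0.64 for Kcnj2, Kcnj3 and Kcnj5, were close in size to those at 70 days, -0.38 to -0.82. Without iSAN replicate 3 the iSAN had 4 members called lower and 1434 genes in all, and without RA replicate 3 it had 1552 genes called. Leaving out RA replicates 1, 2, 3 or 4 lowered the sSAN count of genes to 1985, 1821, 2004 and 1970 of 3123.

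Set against the LA, the nodes were lower for fewer members. In the sSAN it was 5 (Kcnj2, Kcnj3, Kcnj5, Kcnj12, Abcc8), with 8.41% of 14112 genes called lower and 11.8% higher (20.2% in all), and in the iSAN 4 (Kcnj2, Kcnj5, Kcnj11, Kcnj12), with 6.72% of 14201 genes called lower and 10.4% higher (17.1% in all). Abcc9 was not called in either, with log2 fold changes of -0.20 in the sSAN and 0.14 in the iSAN. With cardiomyocyte-marker scaling no member was lower in either node and 2 were higher in each, beside medians over all genes of 0.78 and 0.46. Among all genes, that scaling called 8712 of 14112 higher and 93 lower for sSAN over LA. For iSAN over LA, 6919 of 14201 genes were called higher and 159 lower. In the sSAN 3 members were called without LA replicates 1, 2 or 4 (1609, 1593 and 1825 genes called of 2857), Kcnj3 with an adjusted p of 0.0513, 0.0528 and 0.0521, and Abcc8 was lost as well without sSAN replicate 1 or LA replicate 3 (0.0688 and 0.072), with rat as a block (-0.62, adjusted p = 0.0691) and when only 70-day rats entered (-0.30, adjusted p = 0.144). The iSAN call of Kcnj11 was lost with all 5 regions in 1 fit (-0.50, adjusted p = 0.0579). Against the LV the iSAN had Kcnj11 lower as well (-0.85, adjusted p = 0.0012), and in the sSAN the value was -0.98 (adjusted p = 0.0514). The iSAN value was not called with library totals alone (-0.25, adjusted p = 0.179). With cardiomyocyte-marker scaling it turned to 0.16, below a median over all genes of 1.05. The iSAN count of genes called against the LV was 2901 of 5669 without LV replicate 4.

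Other members of the Kcnj family were near 0. The 9 others in the table summed to between 0.951 and 7.85 CPM per library, and only 2 passed the filter against the RA. Kcnj14, another Kir2 pore, was at 4.32 ± 1.84 CPM in the LV (n = 2) and 0.719 ± 0.502 CPM in the RA (n = 4), 2.57 higher on the log2 scale (adjusted p = 0.00539). Against the RA neither was called in the nodes.

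The G protein path that opens Kir3 channels was followed with 22 genes, of which 21 were tested against the RA in the nodes and the LV. In the sSAN 3 were higher and 3 lower, the higher count being near the 13.8% of all genes called higher there and the lower one beside 8.48%. Chrm2, the M2 muscarinic receptor, was at 105 ± 22.4 CPM in the sSAN and 206 ± 12.8 CPM in the RA (SD, n = 4 each, log2 fold change -0.96, adjusted p = 0.00278). Rgs6, a regulator that shortens the signal, had a log2 fold change of -0.99 (adjusted p = 0.019) and Gnao1, an alpha subunit, of -0.58 (adjusted p = 0.0328). Rgs4, Rgs5 and Rgs10 were higher (0.79, 0.58 and 0.66), Rgs5 being also one of the pericyte markers. In the iSAN the same 3 were lower (Chrm2 -0.43, Rgs6 -0.65, Gnao1 -0.38) and Rgs10, Gng12 and Rgs5 higher (0.98, 0.44 and 0.52), beside 6.16% and 10.4% of all genes. The LV had 7 lower, of which Gnao1 (-3.11, adjusted p = 1.05e-07), Chrm2 (-1.79) and Rgs6 (-2.06) had the smallest p, and 6 higher, of which Rgs4 (1.39), Rgs16 (1.31) and Gng5 (1.16) had the smallest p, beside 22.7% and 23.5% of all genes. The medians of the tested genes were 0.21 for the sSAN, 0.11 for the iSAN and -0.14 in the LV, against 0.02, 0.01 and -0.03 over all genes. The calls of this and the next 2 lists are for TMM scaling and were not refitted with the others.

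Of 13 proteins that anchor channels at the membrane, the sSAN had 3 above the RA and 5 below it, the iSAN 2 above and 3 below, and the LV 3 above and 4 below. Over all genes 13.8% were called above and 8.48% below the RA for the sSAN, 10.4% and 6.16% for the iSAN, and 23.5% and 22.7% for the LV, so the LV counts and the iSAN count above are near those shares. In the sSAN the lower ones with the smallest p were Dmd, which encodes dystrophin (-1.01, adjusted p = 0.00155), and the ankyrins Ank3 (-0.73) and Ank2 (-0.74). Flna, an actin crosslinker (0.86), Cav1, a caveolin (0.73), and Akap5 (1.48) were higher. In the iSAN Ank3 (-0.55) and Ank2 (-0.39) were among the lower ones and Flna (0.76) and Cav1 (0.44) were higher. In the LV Dlg2 (-2.58), Dmd (-0.79) and Ank3 (-0.44) were among the lower ones and Cav1 (0.53) and Flna (0.36) among the higher ones. Their medians were -0.37 for the sSAN, -0.15 for the iSAN and -0.08 in the LV.

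Of 12 enzymes that set the nucleotide and PIP2 levels KATP channels respond to, 7 were higher and 2 lower in the LV than in the RA (23.5% and 22.7% of all genes), with a median of 0.50. Ldhb (2.10, adjusted p = 1.46e-07), the mitochondrial creatine kinase Ckmt2 (3.38) and the muscle phosphofructokinase Pfkm (0.84) were higher, and Prkaa2, a catalytic subunit of AMP kinase (-0.45), and Pip5k1c (-0.33) lower. In the sSAN 2 were higher, among them Ckmt2 (0.88), and 3 lower, Prkaa2 (-0.83), Ckb (-0.47) and Ckm (-0.75), beside 13.8% and 8.48% of all genes, with a median of -0.22. In the iSAN Ckmt2 (0.90) and Pip5k1b (0.62) were higher and Pfkm (-0.34) and Prkaa2 (-0.38) lower, beside 10.4% and 6.16% of all genes, with a median of -0.14.

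Over the 18 libraries the genes most like each member were found by Pearson correlation of log2 CPM among 15248 genes, as a description of points that share rats and regions. Kcnj3 was closest to Creb3l2 and Tbx5 (r = 0.985 each) and Kcnj5 to Clu (0.979) and Nppa (0.977). Kcnj2 was closest to Dsp (0.969) and Usp13 (0.967), Kcnj12 to Erbb2 (0.956) and Edil3 (0.950), and Kcnj11 to Amz2 (0.978) and Ldb3 (0.976), the last one of the cardiomyocyte markers. Abcc8 was closest to Srl (0.966) and Pak4 (0.959), Abcc9 to Fgf1 (0.917) and Anks1a (0.896), and Kcnj8 to Ptcd2 (0.913) and Bst2 (0.909). Among the members themselves Kcnj3 and Kcnj5 had an r of 0.97 over all libraries and 0.74 within regions, and Kcnj8 had negative values with each of the other 7 within regions (-0.01 to -0.46).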

How the data were processed

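Bulk RNA from 18 pieces of rat heart was sequenced as Illumina paired reads. Per the labels and the study's methods, the authors filtered the reads, aligned them with HISAT2 to Rattus norvegicus release 98, counted them per gene with HTSeq 0.6.1 and compared groups with DESeq2. The deposited table holds raw counts per gene, which were used for all tests, and FPKM made by the authors from those counts, used for levels between genes and for ratios. Of the 8 genes, 5 have FPKM equal to the count over the listed length and library total (tolerance 1 base). The FPKM of Kcnj12, Abcc8 and Abcc9 rest on 2114, 4692 and 5608 bases where the table lists 2303, 4749 and 7185. Another 72 normalized columns, and the fold changes and p-values of 10 comparisons by the authors, were not used.

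Counts were filtered with filterByExpr, scaled by TMM and tested with edgeR 4.0.16 (quasi-likelihood, limma 3.58.1, R 4.3.3), 1 fit per pair of regions, with Benjamini-Hochberg adjustment and a threshold of 0.05. The 95% intervals come from the fold change and its F value. FPKM ratios were compared by exact two-sided permutation. Library totals of 17334954 to 24252103 counts gave 73 to 10725 counts per member and library. The code was tested on simulated data. Alternatives were DESeq2 1.42.0, its size factors, no filter, all 5 regions in 1 fit, rat as a block, cardiomyocyte-marker scaling, each age alone, each library left out, and for ratios 0.1 FPKM added, CPM and paired sign flips. Leaving out rat 2 and scaling by library totals alone were chosen after seeing the data.

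All 8 members are named, with the called genes of smallest p in each of 3 pathway lists and the 2 genes most like each member. Some list genes that this rule would name are not reported here. The members and the 17 lists (166 genes, 157 in the table) were chosen with earlier results of these data known. Rats were matched across regions by the shared ending of sample titles. Deviations of same-rat pairs from the group means correlated at 0.117 to 0.166 between sSAN and RA, 0.120 to 0.216 between iSAN and RA and 0.210 to 0.245 between LA and RA. Promoter sequences are those of RefSeq on GRCr8.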

Additional observations from a re-analysis of the deposited data

Results flagged for a closer look

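In 48 groups of 4 libraries examined, 4 had a library far from the other 3, where chance gives about 1 in 20. In the LA, Kcnj11 was at 118.1 CPM in rat 1, and the gap to the next library was 0.85 of the range of the group. The Kcnj2/Kcnj12 FPKM ratio was 0.317 in the RA of rat 1 (0.933 of the range) and 0.237 in the iSAN of rat 2 (0.952 of the range). The Kcnj3/Kcnj5 FPKM ratio was 2.13 in the iSAN of rat 1 (0.833 of the range).

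Kcnj11 differed in sign between the nodes in rats 1 and 2 (59 days) and rats 3 and 4 (70 days). The sSAN over iSAN log2 difference averaged -0.53 in the 59-day rats and 0.17 in the 70-day rats, and both rats of each age shared the sign. The difference between ages was not tested.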

How the results depend on the processing

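Values below are log2 fold changes or counts, and the cause of each change was not tested. With cardiomyocyte-marker scaling, genes called, members higher and members lower were 9408, 1 and 1 for sSAN over RA, 8652, 1 and 1 for iSAN over RA, 8805, 2 and 0 for sSAN over LA, 7078, 2 and 0 for iSAN over LA, 10332, 4 and 0 for sSAN over LV, and 10396, 5 and 0 for iSAN over LV. For LV over RA 1 member was higher, beside 1410 genes higher of 8924 called. For LV over LA it was 0, beside 1061 genes higher of 8759 called. That scaling called 5 genes for sSAN over iSAN. It reversed Kcnj12 against the RA (sSAN 0.062, iSAN 0.13), Kcnj8 (0.28) and Kcnj11 (0.082) for sSAN over iSAN, Abcc8 for sSAN over LA (0.081), Kcnj11 for LV over RA (-0.29) and LV over LA (-0.20), Abcc9 for LV over LA (-0.039), Kcnj8 (0.41) and Abcc9 (0.55) for sSAN over LV, and Kcnj8 (0.13) and Kcnj11 (0.16) for iSAN over LV. Library totals alone gave 2 genes for sSAN over iSAN, 9553 genes, 1 member higher and Kcnj11 at -0.34 for LV over RA, 9297 genes, 0 members higher, Kcnj11 at -0.20 and Abcc9 at -0.044 for LV over LA, 3872 genes and 1 member lower for sSAN over LV, and 8741 genes and 1 member lower for iSAN over LV. The 59-day rats alone gave 31 genes and 0 members lower for iSAN over RA, 0 genes and Kcnj8 at 0.049 for sSAN over iSAN, 614 genes for LA over RA, and 13 genes and 0 members lower for iSAN over LA. The 70-day rats alone gave 1710 genes for sSAN over RA, 3 genes and Kcnj11 at 0.15 for sSAN over iSAN, 384 genes and Kcnj2 at -0.022 for LA over RA, and 1238 genes for sSAN over LA. DESeq2 called 141 genes for sSAN over iSAN. All 5 regions in 1 fit gave 20 genes for sSAN over iSAN, 546 genes and 1 member lower for LA over RA, and 5675 genes for sSAN over LV. With rat as a replicate block, 1 member was higher for iSAN over RA, where the number of all genes called was of the order of the 2330 without the block. For LA over RA 2492 genes were called with it. Without rat 2, 1751 genes were called for sSAN over RA, 2 for sSAN over iSAN, 705 for LA over RA and 1407 for sSAN over LA.

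With 1 library left out, genes called ranged from 1821 to 3463 for sSAN over RA, 1434 to 3016 for iSAN over RA, 0 to 4 for sSAN over iSAN, 1593 to 3123 for sSAN over LA, 566 to 3472 for sSAN over LV and 2901 to 5948 for iSAN over LV. Members called ranged from 0 to 1 higher and 4 to 7 lower for iSAN over RA, 3 to 6 lower for sSAN over LA, and 0 to 2 higher and 1 to 4 lower for sSAN over LV. For sSAN over iSAN, Kcnj11 ranged from -0.28 to 0.053 and Kcnj8 from -0.11 to 0.044, and the log2 ratio differences from -0.28 to 0.13 for Kcnj11/Kcnj8 and -0.13 to 0.10 for Kcnj3/Kcnj5. Kcnj2 ranged from -0.055 to 0.11 for LA over RA, and the Abcc9/Abcc8 difference from -0.058 to 0.079 for sSAN over RA and -0.0094 to 0.13 for iSAN over RA. The lowest depth was that of Kcnj2, at 73 counts in 1 sSAN library.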
